A study of Mus musculus with 188 samples.

Results

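The bins described here are the early-replicating 50 kb bins of the mouse genome that follow the earliest 10% of the replication schedule in single mouse embryonic stem cells (mESCs). They were chosen by a rule on measured values. The smoothed score of each bin was averaged over haploid cells and over diploid cells, the mean of both line means was ranked from highest (earliest) to lowest, and bins ranked from 10% to under 35% were kept, called the early bins below. They numbered 11278 of 45112 ranked autosomal bins and covered 563.9 Mb. Bins ranked under 10% are called the earliest 10%, those from 35% to under 65% the middle bins, and later ones the late bins and the latest 10%. Since the score chose these bins, the scores and the states derived from them are given as a description. The first early bin had a mean score of 0.573628 and the bin just outside it 0.573651. At the other end, the last early bin had 0.256837 and the next bin 0.256835.

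The cells were sorted singly on DNA content after DAPI staining, amplified over the whole genome and sequenced, so that read density in an S-phase cell marks what has already replicated. Of the lines used, H129-2 is haploid and of strain 129, and F121-9 is a diploid hybrid with a set of 129 chromosomes and a set of Castaneus chromosomes. Both were grown in N2B27 medium with 2i and LIF, without any further treatment. The S-phase cells with values numbered 75 for the haploid and 63 for the diploid line. The cells of each line carry the wells of 1 plate and no separate cultures are named, so each line was treated as 1 sample, no test between lines was made, and every SD is the spread over cells.

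Mammalian chromosomes replicate as large domains that fire clusters of origins at characteristic times. Early domains are usually rich in genes and lie in the open, active compartment of the nucleus, whereas late domains are poor in genes and lie near the lamina. In embryonic stem cells, genes of the pluripotency network and genes used by every cell lie mostly in early domains, and some domains change their time when cells differentiate.

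Cells spanned much of S phase. Progress, the percentage of ranked bins replicated in a cell with the homologs of diploid cells averaged, was 24.6% at the lowest, 63.6% at the median and 88.6% at the highest in haploid cells, and 18.2%, 56.6% and 79.1% in diploid cells. Plate rows held 54% of the variance of progress in haploid cells and 7.69% in diploid cells, and row A, with 11 haploid cells, had a median progress of 30.6%. The most alike cells were 3 diploid pairs, with Pearson r between 0.919 and 0.933 over ranked bins. The values of the 2 earliest diploid cells are given on their own with the per-cell values.

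To show what sequence the early bins hold at gene starts, the 150 bases before the most upstream annotated start are printed for 6 genes that the results return to, namely a pair of pluripotency genes, 2 genes from regions that were often behind schedule, and a gene each from a region with a higher score in haploid and in diploid cells. The sequences are from RefSeq, build GRCm38.p6, 5′ to 3′ on the gene's strand, and capitals mark each CG dinucleotide, the site of DNA methylation in mammals.
Pou5f1, chr17:35505868-35506017, plus strand: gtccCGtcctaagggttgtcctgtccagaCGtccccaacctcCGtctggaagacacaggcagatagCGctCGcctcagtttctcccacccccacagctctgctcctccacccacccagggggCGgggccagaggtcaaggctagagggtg
Nanog, chr6:122707339-122707488, plus strand: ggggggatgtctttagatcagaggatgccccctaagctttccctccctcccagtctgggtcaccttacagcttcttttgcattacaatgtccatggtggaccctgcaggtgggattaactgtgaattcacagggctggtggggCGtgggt
Kit, chr5:75574766-75574915, plus strand: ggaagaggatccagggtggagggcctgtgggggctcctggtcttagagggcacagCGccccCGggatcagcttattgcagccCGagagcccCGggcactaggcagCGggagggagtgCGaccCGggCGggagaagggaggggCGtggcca
Prkaa2, chr4:105109899-105110048, minus strand: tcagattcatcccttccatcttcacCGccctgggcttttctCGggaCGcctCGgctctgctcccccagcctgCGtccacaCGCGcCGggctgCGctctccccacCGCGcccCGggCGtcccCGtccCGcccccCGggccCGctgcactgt
Tcf7l2, chr19:55741660-55741809, plus strand: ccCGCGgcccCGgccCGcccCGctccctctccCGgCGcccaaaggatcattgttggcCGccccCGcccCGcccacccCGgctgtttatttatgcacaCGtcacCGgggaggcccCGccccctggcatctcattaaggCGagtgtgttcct
Mlph, chr1:90914935-90915084, plus strand: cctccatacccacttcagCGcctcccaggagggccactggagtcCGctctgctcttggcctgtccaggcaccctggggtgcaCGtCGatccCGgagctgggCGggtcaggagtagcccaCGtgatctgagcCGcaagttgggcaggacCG
The Prkaa2 stretch held 17 CG dinucleotides and the Tcf7l2 stretch 15, whereas the Kit and Mlph stretches held 9 each, that of Pou5f1 6 and that of Nanog 1. Over 8148 promoters of protein-coding genes in early bins, the 150 bases before the start held a median of 9 CG, with quartiles of 4 and 15. The median was also 9 in the earliest 10%, 6 in the middle bins and 1 in both later classes. At least 10 CG were present in 48.8% of early promoters and in 42.8% of all 17987 promoters. The GC box GGGCGG, searched on both strands and itself holding a CG, was found in 46.4% of early promoters and in 41% of all. The sequence TATAAA, also on both strands, was found in 4.87% of early promoters and in 6.82% of all. The CG content of early promoters was thus close to that of the earliest 10%, and Nanog lay below the lower quartile.

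The early bins were rich in genes. They held 8563 of the 19345 protein-coding gene starts in ranked bins, or 44.3%, in 25% of the bins. This corresponds to 15.2 starts per Mb, compared with 17.8 in the earliest 10%, 6.96 in the middle bins and 8.58 over all ranked bins. The largest difference in starts per Mb between neighbouring classes was therefore that between the early and the middle bins. These are means of whole classes, so they do not place the fall at the late edge of the early bins. At least 1 start was present in 46.6% of early bins. Gene bodies covered a median of 69.3% of an early bin, near the 67.6% of the earliest 10% and above the 30.1% of the middle bins. Median GC content was 44.8%, with quartiles of 42.8% and 47%, compared with 47.4% in the earliest 10%, 41.7% in the middle bins and 41.4% over all ranked bins. CpG dinucleotides numbered 11 per kb at the median, against 12.3, 7.94 and 7.80 in the same order.

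Content also changed with rank inside the early bins. From ranks of 10 to 15% to ranks of 30 to 35%, median GC fell from 45.9% to 43.7% and gene starts fell from 17.3 to 13.1 per Mb. Spearman's rho between rank and GC was -0.241 over 11278 early bins and -0.811 over all ranked bins. Gene-body cover did not follow rank inside the early bins, with rho of -0.00414. These correlations are across neighbouring bins that share domains, and no p-value is given for them.

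**Figure D1:**
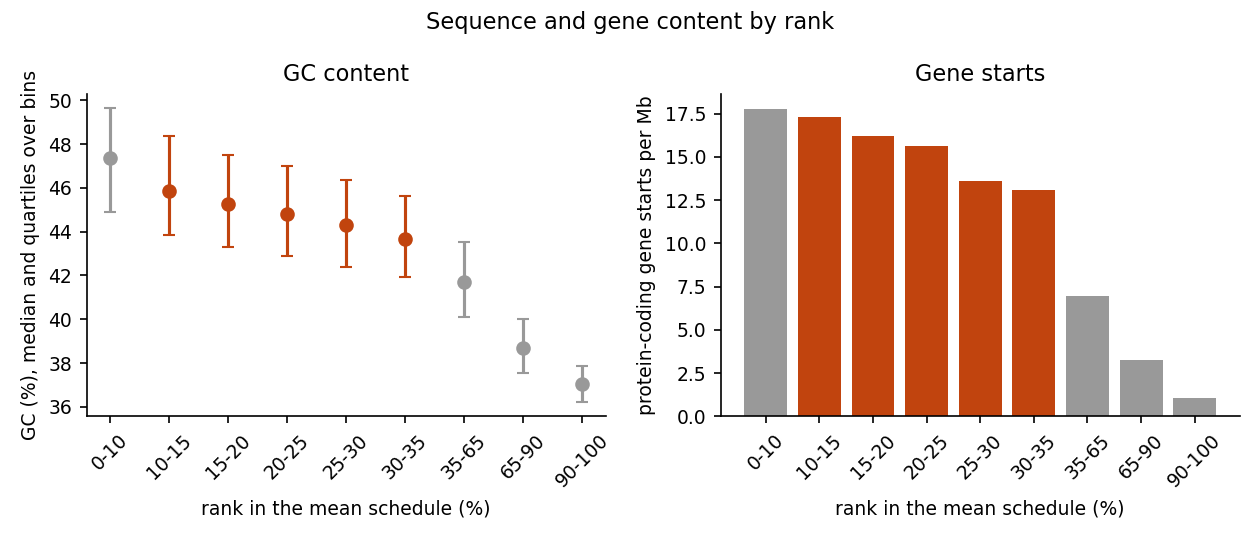
Median GC content with quartiles over bins (left, in percent) and protein-coding gene starts per Mb (right) by rank in the mean schedule, with the 5 bands of early bins in orange and the other classes in grey. GC falls in steps from 45.9% to 43.7% within the early bins. Gene starts are 13.1 per Mb in the last band of early bins and 6.96 per Mb over all middle bins. The middle bins span a wider range of ranks than a band, so the change at the late edge itself is not shown.

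The chromosomes differed in how many early bins they held. Early bins made up 39.7% of chromosome 11, 34.1% of chromosome 19 and 29.8% of chromosome 5. They made up 16.5% of chromosome 3, 17.9% of chromosome 16 and 18.3% of chromosome 1. Chromosome 16 was low in early bins but had the highest share in the earliest 10%, at 14.9%, whereas chromosome 11 had 6.48% there. The order of these chromosomes therefore differed between early bins and the earliest 10%.

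Along the chromosomes, the early bins formed 1388 runs of adjacent bins with a median length of 0.3 Mb. The longest run was 2.9 Mb, 247 runs were single bins, and the 114 runs of at least 1 Mb held 28.9% of the early bins. Smoothing links neighbouring bins, so runs reflect the smoothed profile. All 426 runs of the earliest 10% with a ranked bin on each side lay between early bins. Of the runs of early bins, 316 were slopes with an earlier bin on one side and a later bin on the other, and held 25.6% of early bins. Another 245 were local dips between earlier bins on both sides and held 10.5%. A further 314 were local peaks with later bins on both sides, which never reached the earliest 10%, and held 23.3%. The remaining runs touched an unranked bin.

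Local dips and local peaks differed in content at the same rank. Within ranks of 10 to 15%, median GC was 46.7% in the 658 bins of local dips and 44.6% in the 148 bins of local peaks. Within ranks of 25 to 30%, it was 45.8% in 56 bins of local dips and 43.6% in 709 bins of local peaks. In all 5 bands both median GC and gene starts per Mb were higher in local dips. The band of ranks 30 to 35% held only 24 bins of local dips, against 1019 of local peaks. Over all ranks, gene starts numbered 19.2 per Mb in local dips, 13.5 in slopes and 11.7 in local peaks. No test was made, since neighbouring bins are not independent.

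The 5 longest runs were large gene-bearing domains. The run of 2.9 Mb on chromosome 13 from 111600001 to 114500000 held 23 protein-coding starts, the first of them Mier3, Map3k1, Ankrd55 and Il6st. Il6st encodes gp130, the signalling subunit of the LIF receptor, and Map3k1 encodes a kinase of the stress-activated MAP kinase pathway. On chromosome 5 from 65000001 to 67750000, 26 starts began with Tmem156, Klhl5, Wdr19 and Rfc1, the last encoding the large subunit of the clamp loader of DNA replication. On chromosome 1 from 57900001 to 60550000, 35 starts began with Sgo2a, Kctd18 and the aldehyde oxidases Aox1 and Aox3, and included Orc2 of the origin recognition complex. On chromosome 5 from 32750001 to 35250000, 41 starts began with Pisd, Gm20671, Prr14l and Depdc5, the last a subunit of a complex that restrains mTORC1. On chromosome 3 from 152100001 to 154550000, 17 starts began with Gipc2, Dnajb4, Fubp1 and Nexn. Across these runs, the second run on chromosome 5 was on average 97.5% replicated in haploid and 95.3% in diploid cells, whereas the run on chromosome 3 was 86.1% and 90.5% replicated.

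Gene groups were spread unevenly over the schedule. Of 29 pluripotency genes, 17 (58.6%) had their start in early bins and 9 in the earliest 10%, with 3 in middle bins and 0 later. Of 38 genes for origin licensing and replication, 24 (63.2%) lay in early bins, 4 in the earliest 10% and 10 (26.3%) in middle bins, where 24.3% of all protein-coding genes lay. Early bins also held 39 of 69 ribosomal protein genes (56.5%) and 20 of 30 proteasome genes (66.7%), compared with 44.3% of all protein-coding genes. Of 17 glycolysis genes, 6 lay in early bins and 8 in the earliest 10%, among them Gapdh and Hk2. Early bins held 10 of 29 regulators of the germ layers (34.5%) and 10 of 27 of neural fate (37%), and the earliest 10% held 7 (24.1%) and 5 (18.5%), compared with 20.7% of all protein-coding genes. Olfactory receptor genes had 122 of 1058 starts (11.5%) in early bins and vomeronasal receptor genes 1 of 202 (0.495%). These counts describe position and were not tested.

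**Figure D2:**
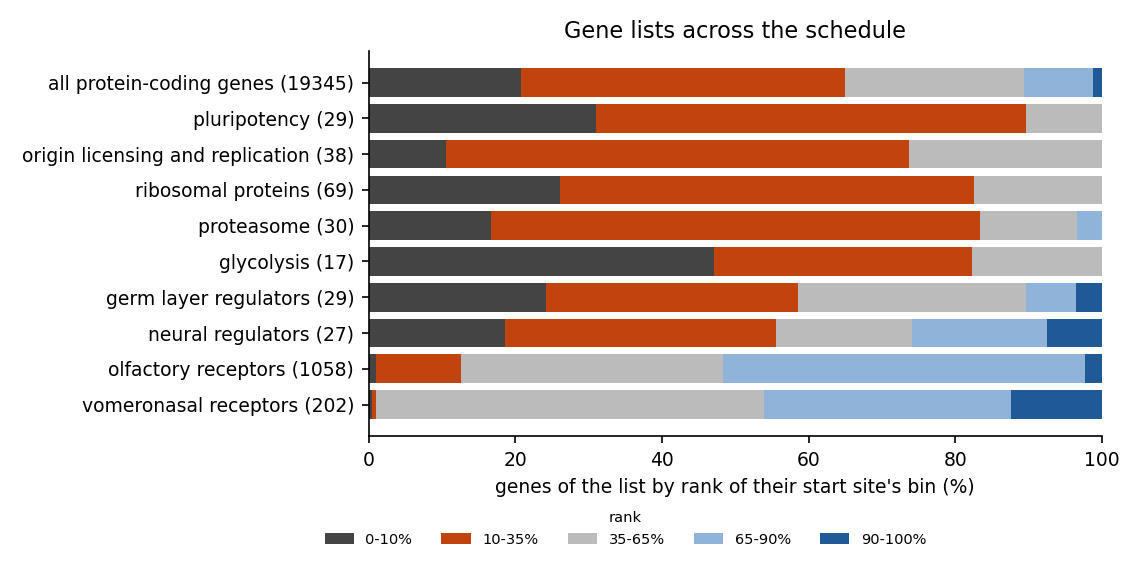
Share of each gene list, in percent of its autosomal genes in ranked bins (number in parentheses), by rank of the bin that holds the start site, with early bins in orange. Early bins hold 44.3% of all protein-coding genes, 63.2% of the licensing and replication genes and 11.5% of the olfactory receptor genes.

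Among the pluripotency genes, the ranks of the 17 in early bins ran from 11.2% for Nr5a2 to 33.96% for Tet2. Pou5f1, which encodes the transcription factor Oct4, ranked 16.99% and was replicated in all 75 haploid cells, or 100%, and on 90.5% of homologs in diploid cells. Nanog ranked 29.1% and was replicated in 96.0% and 92.1%. Its neighbours in the cluster on chromosome 6, Dppa3 and Gdf3, shared 1 bin at rank 25.1% and had the same percentages. The Krüppel-like factor genes Klf4, Klf5 and Klf2 ranked 20.01%, 27.1% and 31.8%. Tfcp2l1 ranked 15.3%, Tbx3 12.3% and Dppa5a 21.6%. The dioxygenase genes Tet1 and Tet2, which act on methylated cytosine, differed in place, at 21.7% and 33.96%, and Tet2 was replicated in 80% of haploid cells against 98.7% for Tet1. Lifr, the LIF receptor gene, was replicated in 89.3% of haploid cells and on 83.3% of homologs in diploid cells.

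Genes that license and fire origins lay both in early and in middle bins. In the middle bins were Orc3, Orc4, Orc5, Mcm4 and Mcm5 of the same complexes as those below, and Cdc7 and Dbf4, the subunits of a kinase that fires origins, at ranks of 52.03% and 50.7%. The origin recognition subunits Orc6, Orc2 and Orc1 ranked 19.6%, 20.3% and 28.2%. Cdc6, which loads the helicase with them, ranked 32.7%, and Gmnn, which encodes the licensing inhibitor geminin, ranked 20.9%. The helicase subunit genes Mcm7, Mcm6 and Mcm3 lay near the late edge at 32.6%, 32.9% and 33.7%, and Mcm10 ranked 30.3%. Of the factors that activate the helicase, Gins1, Gins4 and Cdc45 ranked 23.4%, 25.3% and 33.7%. Mcm3 was replicated in 84% of haploid cells and Mcm7 in 98.7%, at ranks about 1 percentage point apart. The rank uses both lines, so a share in haploid cells alone need not follow it.

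The early bins were mostly replicated in the sampled cells. In haploid cells the percentage of early bins replicated was 51.7% at the lowest, 98.1% at the median and 99.9% at the highest, with a mean of 92.7% ± 12.3 (SD, n = 75). In diploid cells it was 32.7%, 95.4% and 99.8%, with a mean of 92.04% ± 12.1 (SD, n = 63). The values of the lines overlapped over nearly their whole ranges. A cell that replicated bins strictly in schedule order would have finished all early bins at 35% progress, so past that point the difference from strict order can only be 0 or negative. Against that order, the haploid cells differed by -4.79 ± 6.29 percentage points (SD, n = 75). The mean difference of the diploid cells was -5.97 ± 5.76 (SD, n = 63).

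**Figure D3:**
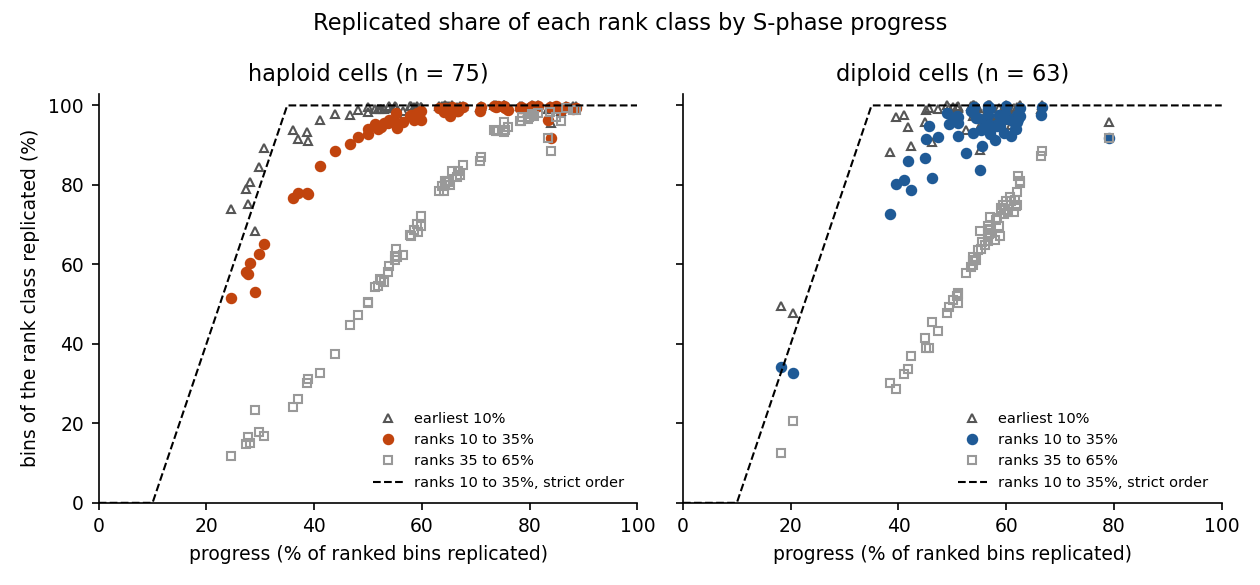
Percentage of each rank class replicated in a cell against the progress of the cell (percent of ranked bins replicated), for 75 haploid cells (left, early bins in orange) and 63 diploid cells (right, early bins in blue). Triangles are the earliest 10%, squares the middle bins, and the dashed line is strict order for the early bins. Past 35% progress the dashed line stays at 100%, so points can only lie on or below it, and early bins are above 90% in most cells past 50%.

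The share of early bins replicated rose with progress. At 30 to 40% progress, the share of early bins replicated was 65.3% at the lowest, 77.7% at the median and 80.3% at the highest of 7 cells of both lines, and the difference from strict order was -22.0 ± 3.13 percentage points (SD, n = 7). At 40 to 50% it was -10.7 ± 5.64 (SD, n = 16) and at 50 to 60% -4.16 ± 2.96 (SD, n = 54). Middle bins were meanwhile already 26.7% ± 5.08 replicated at 30 to 40% progress, when early bins had reached 75.5% ± 5.09 (SD, n = 7). In the 6 haploid cells at 20 to 30% progress, 66.8% ± 4.95 of bins were replicated at ranks of 10 to 15%. At ranks of 30 to 35%, 43.3% ± 4.34 were replicated in the same cells. These cells took part in the ranking, so this order is only a description.

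The 2 earliest diploid cells had replicated less of the early bins than any haploid cell. At 18.2% and 20.4% progress they had replicated 34.2% and 32.7% of early bins and 49.4% and 47.9% of the earliest 10%. The haploid cell with the lowest progress, 24.6%, had replicated 51.7% and 73.9%. In the diploid cell at 18.2%, the early bins at ranks of 10 to 15% were 44.6% replicated and those at ranks of 30 to 35% were 25.2% replicated. In the diploid cell at 20.4%, the same bands were 38.3% and 30.7% replicated, and the bands between them 32.4%, 31.2% and 31.1%. The share replicated thus fell with rank in both cells, but hardly past ranks of 10 to 15% in the cell at 20.4%. Both cells took part in the ranking, so this order is only a description.

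In later cells, a few early bins remained. Among cells past 60% progress, the share of early bins still unreplicated was 0.0621% at the lowest, 0.683% at the median and 8.10% at the highest of 39 haploid cells. In the 14 such diploid cells it was 0.452%, 3.45% and 8.18%. The ranges overlapped, with more than 5% left in 1 of 39 haploid and 4 of 14 diploid cells. At 60 to 70% progress alone, the haploid cells had replicated 98.9% ± 0.560 of early bins (SD, n = 14). Over the same interval, the 13 diploid cells had replicated 96.4% ± 2.03 (SD). The haploid cell with 8.10% left had a progress of 83.99%, and 4.30% of the earliest 10% was also unreplicated in it. The diploid cell with 8.18% left had a progress of 79.1% and lacked 4.12% of the earliest 10%. It lacked 8.13% of the middle bins, so its states hardly separated early from middle bins, whereas the haploid cell lacked 11.5% of the middle bins.

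To follow early bins around their own time, each bin was given a scheduled time from its rank on an S phase of 10 h, with the cell in question left out. Early bins were 49.8% replicated within 0.1 h after that time, passed 75% at 1.35 h and passed 95% at 2.95 h. The middle bins passed the same levels at 0.95 h and 2.65 h, and the earliest 10% at 2.25 h and 3.85 h. T_width, the time from 25% to 75% replicated on a fitted sigmoid, was 2.67 h for early bins and 2.02 h over all ranked bins. It was 1.94 h for the earliest 10%, 2.29 h for middle bins and 1.78 h for late bins. The lowest interval of the earliest 10% measured 43.1%, so its 25% point lay outside the data. T_width of early bins was 2.995 h in haploid cells alone and 2.30 h in diploid cells alone. The earliest 10% had the same order, at 2.80 h and 1.99 h. The order was opposite for the middle bins, at 2.24 h and 2.49 h. The fit of the early bins gave 24.9% at 1.45 h before schedule, where 30.2% was measured, and no interval measured as little as 25%, the lowest being 27.4%. The fit thus lay below the data at its early end. Values this early came only from the 2 earliest diploid cells, since intervals of haploid cells began at 1.05 h before schedule. The width of a class and that of its parts also differed, since the 5 bands within the early bins had T_width from 2.02 to 2.50 h, each below the 2.67 h of all early bins.

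**Figure D4:**
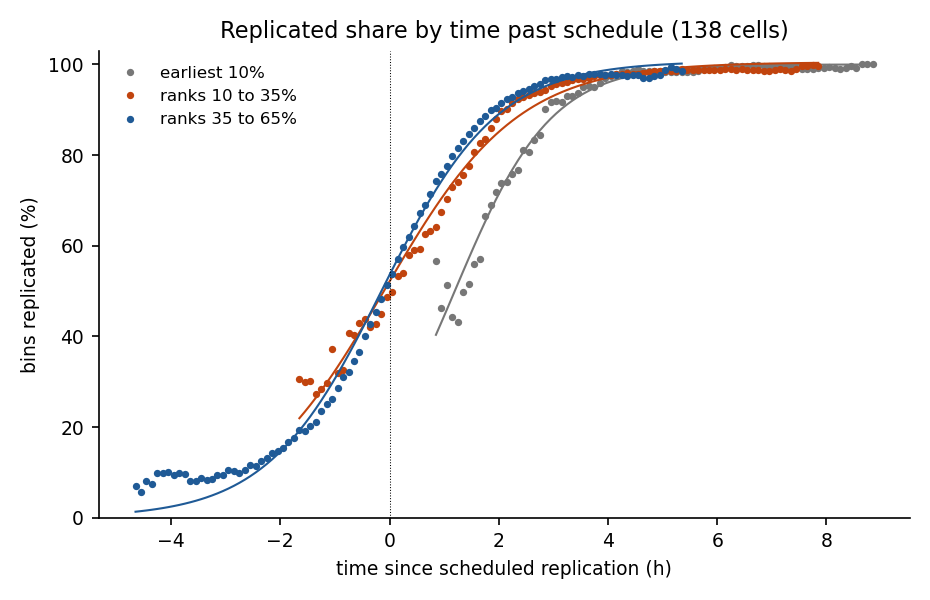
Percentage of bins replicated against the time since their scheduled replication (h) in intervals of 0.1 h, for the earliest 10% (grey), the early bins (orange) and the middle bins (blue) of 138 cells, with fitted sigmoids as lines. The early bins start at about 30%, where values come only from the 2 earliest diploid cells. They pass 75% at 1.35 h and 95% at 2.95 h.

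Bins more than 1.5 h past their scheduled time are called overdue. In haploid cells, the share of overdue early bins still unreplicated was 0.0621% at the lowest, 1.74% at the median and 44.3% at the highest, with a mean of 5.76% ± 9.40 (SD, n = 74). In diploid cells it was 0.168%, 4.16% and 21.4%, with a mean of 5.52% ± 4.72 (SD, n = 61). Over both lines the mean was 5.65%, and it was 15.01% when a smoothed score above 0 counted as replicated. The lines overlapped, and the highest haploid values came from cells early in S phase. Plate rows held 72.2% of the variance of this share in haploid cells and 26.3% in diploid cells, and the part of the plate in these values was not tested. More than 4 h past schedule, 0.966% of early-bin values were unreplicated in haploid cells and 3.22% in diploid cells, and the earliest 10% had 0.504% and 1.96%.

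Stragglers were spread over many bins. Of the 11278 early bins, 489 (4.34%) were unreplicated in at least 10% of their overdue cells, compared with 10.5% of the 27209 ranked bins that were overdue in at least 20 cells. At a level of at least 20%, 3 early bins remained, compared with 0.768% of those bins. Of the early bins, 330 (2.93%) were never found unreplicated when overdue. No share over all ranked bins is set beside that count, so it is not read as a trait of early bins. The shares at levels of 10% and 20% are not at equal time, since times past schedule reached 7.85 h for early bins and 5.35 h for middle bins. At 1.55 h past schedule, 80.6% of early-bin values and 85.9% of middle-bin values were replicated, whereas at 4.95 h the values were 98.5% and 97.7%. The 1127 early bins with the most overdue unreplicated values held 24.2% of all such values. Protein-coding starts were present in 56.1% of the bins that never straggled, in 51.04% of those with shares under 5% and in 36.8% of those with shares of 5 to under 20%. GC content hardly moved, with medians of 44.9%, 44.8% and 44.6%, while the median rank rose from 18.1% to 21.3% and 25.8%.

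The regions with the highest straggling shares held few genes each. The region with the largest share lay on chromosome 18 from 62650001 to 62850000 with the start of Spink13, a gene of a family of serine protease inhibitors, and was unreplicated in 18.4% of overdue cells on average. This came mainly from haploid cells, at 30.9%, against 3.65% in diploid cells. On chromosome 12 from 32950001 to 33350000, with Sypl, Cdhr3 and Atxn7l1, the share was 16.7%. The region of Kit on chromosome 5 from 75450001 to 75750000 had 15.97%, and here the lines were close, at 13.98% in haploid and 18.1% in diploid cells. Kit encodes the receptor tyrosine kinase for stem cell factor, and its start was the only protein-coding one among these 6 bins, of which gene bodies covered a median of 6.72%.

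The Kit region and the region of Bicd1 differed in when they were missing. Kit was mostly unreplicated in 12 of 75 haploid cells and 11 of 63 diploid cells, but in 0 of 39 haploid cells and 0 of 14 diploid cells past 60% progress. Bicd1, which encodes an adaptor of the dynein motor, lay on chromosome 6 from 149350001 to 149550000 with an overdue share of 14.5% and was mostly unreplicated in 5 of 39 haploid and 3 of 14 diploid cells past 60%. Its median GC of 38.3% was below the lower quartile of the early bins. On chromosome 4 from 105100001 to 105350000, with Prkaa2, a catalytic subunit gene of the AMP-activated kinase, and the lipid phosphatase gene Plpp3, the overdue share was 15.1%, with 19.2% in haploid and 10.5% in diploid cells.

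Homologs of early bins were rarely called in different states. The authors gave both homologs the same state unless a segment had enough parsed reads and passed their call limits. At least 1 asynchronous bin was called in 45 of 63 diploid cells. A low rate of calls therefore need not mean that homologs rarely differed. In diploid cells, the share of early bins replicated on 1 homolog alone was 0% at the lowest, 0.204% at the median and 8.57% at the highest, with a mean of 0.826% ± 1.63 (SD, n = 63). Other ranked bins of the same cells had 0.884% ± 1.58. The difference was -0.0581 ± 0.361 percentage points (SD, n = 63), with early bins higher in 21 cells, lower in 24 and equal in 18 cells. The difference was thus smaller than its spread over cells. The 129 homolog alone was replicated in 0.531% ± 0.998 of early bins and the Castaneus homolog alone in 0.295% ± 0.677 (SD, n = 63). The other ranked bins had 0.536% ± 0.914 and 0.348% ± 0.703 in the same cells, so the 129 excess was not particular to early bins. More early bins were replicated on 129 alone in 36 cells and on Castaneus alone in 9. The authors' call limits were not equal for the homologs, and their part in this difference was not tested. By time, asynchrony was 0.722% over 2 cells from 1 to 3 h before schedule, 0.209% over 9 cells from 0 to 1 h past it and 0.941% over 58 cells from 2 to 3 h past it. The intervals hold different cells, so no order in time is read from them.

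Few early bins were called asynchronous in several cells. In at least 2 diploid cells, 1102 early bins (9.77%) were asynchronous, compared with 11.5% of all ranked bins, and in at least 4 cells 40 (0.355%) were, compared with 0.432%. The region with the most lay on chromosome 18 from 12900001 to 13150000, with the starts of Osbpl1a, Impact and the histamine receptor gene Hrh4, and its bins were asynchronous in 4 to 5 cells. On chromosome 1 from 39750001 to 40050000, with Gm3646 and the kinase gene Map4k4, bins were asynchronous in 4 cells, with 129 alone in 2 and Castaneus alone in 2 of them. On chromosome 1 from 54600001 to 54850000, which held no protein-coding start, the 129 homolog alone was replicated in all 4 asynchronous cells.

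The early bins were also compared between lines in cells of like progress, in intervals of 10 percentage points with at least 3 cells of each line. These held 6 haploid and 10 diploid cells at 40 to 50%, 19 and 35 at 50 to 60%, and 14 and 13 at 60 to 70%. The haploid minus diploid difference in score had a median of 0.0105 and an SD of 0.177 over early bins, and its median standard error over cells was 0.0744. At a limit of 0.5, 29 early bins (0.257%) were higher in haploid cells, compared with 0.623% of all ranked bins. Another 51 (0.452%) were higher in diploid cells, compared with 1.02% of all. In cells at 40 to 60% progress these counts became 50 and 109. With binarized states and a limit of 30 percentage points they became 1 and 20, and the haploid count became 10 after each chromosome was centered and 14 without matching. At the main setting, these were together 80 early bins (0.709%), compared with 1.65% of all ranked bins. At this limit, large line differences were therefore no more frequent in early bins than in ranked bins as a whole.

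Much of the line difference was shared by whole chromosomes. The median over early bins was 0.253 on chromosome 11 and 0.219 on chromosome 19, and -0.225 on chromosome 3, -0.150 on chromosome 16 and -0.147 on chromosome 1. Haploid cells were higher on 9 and diploid cells on 10 of the 19 autosomes. Removing the chromosome medians lowered the variance of the difference over early bins by 48.3%. The other ranked bins of a chromosome had a median of the same sign on 16 of 19 chromosomes. Across the 19 chromosomes, the median difference and the median GC of early bins had Pearson's r of 0.815 and Spearman's rho of 0.746. Once the chromosome medians were removed, the correlation with GC over early bins was -0.153, so the relation between chromosomes did not continue within them. These points share all cells and libraries, and no p-value is given. The authors also brought aneuploid chromosomes to the mean of control cells, and whether this moves with the chromosome medians was not tested.

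**Figure D5:**
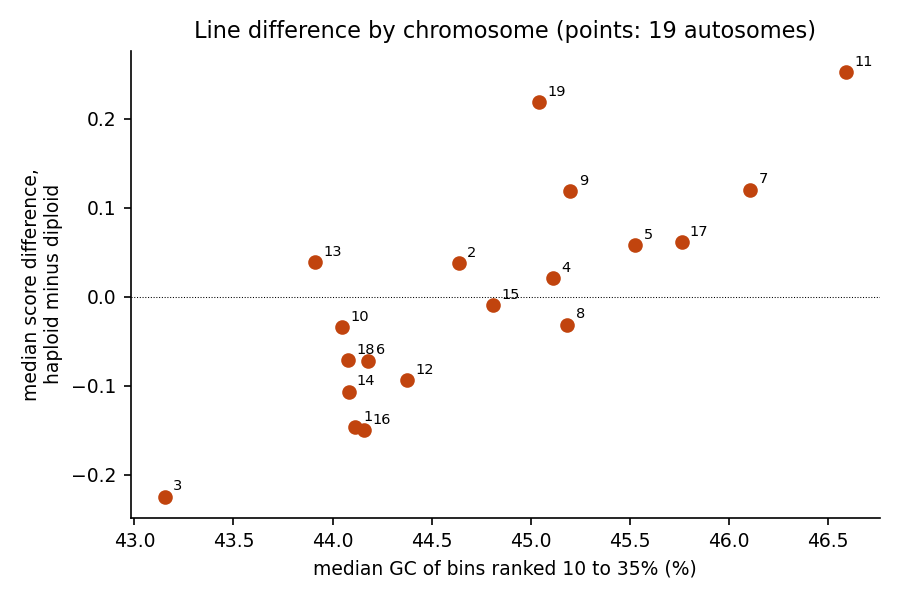
Median haploid minus diploid difference in smoothed score over the early bins of each autosome (points, numbered) against their median GC content in percent, in cells of matched progress. Chromosome 11 has the highest difference at 0.253 and chromosome 3 the lowest at -0.225.

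Tcf7l2 lay in the region with the largest mean difference toward haploid cells, on chromosome 19 from 55650001 to 56200000. Tcf7l2 encodes a transcription factor of the Wnt pathway. At 40 to 70% progress its score was -0.33, 0.75 and 1.49 at the lowest, median and highest of 39 haploid cells, and -1.08, 0.11 and 0.99 in 58 diploid cells, so the ranges overlapped. The region was mostly replicated in 38 of 39 haploid cells and 39 of 58 diploid cells. The matched difference was 0.64, and 0.37 after each chromosome was centered, which is below the limit. On chromosome 14 from 77900001 to 78100000, with Epsti1 and Fam216b, the difference was 0.55, and 0.59 after centering. The chromosome 14 region thus kept its difference after centering, while the Tcf7l2 region fell below the limit.

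The largest difference toward diploid cells was in the Spink13 region that also led the stragglers. Its score was -1.16, -0.14 and 0.97 at the lowest, median and highest of 39 haploid cells and -0.18, 0.64 and 1.89 in 58 diploid cells. It was mostly replicated in 20 of 39 haploid cells and 57 of 58 diploid cells, and the matched difference was -0.71, or -0.66 after centering. On chromosome 1 from 90850001 to 91300000, a region with Mlph, which encodes a carrier of pigment granules, and with Prlh, Rab17 and Lrrfip1 had a difference of -0.59, or -0.53 after centering. It was mostly replicated in 24 of 39 haploid cells and 55 of 58 diploid cells. On chromosome 3 from 28250001 to 28550000, with the start of the Wnt-pathway kinase gene Tnik, the difference was -0.55, or -0.36 after centering. The regions named here for a line difference ranked between 21.9% and 34.8%, in the later part of the early bins, and a strain difference and the difference in ploidy cannot be told apart in this design.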

How the data were processed

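As the study's methods state, reads were mapped by the authors to mm10 with Bowtie2. They removed duplicates with SAMtools, scaled reads in 50 kb windows to the total of a cell, divided them by G1 and G2 control cells, corrected aneuploid chromosomes, centered and scaled each cell and applied a median filter. The submitters' processing notes also name bedtools, without versions. The deposited smoothed values are a score without a unit, relative within a cell. The second deposited table holds states (0 unreplicated, 1 replicated) that the authors made by segmentation and a threshold per cell, with separate states per homolog only where parsed reads called asynchrony. Read numbers are not part of these files, so depth is unknown and no counting interval is given.

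Of 188 labelled cells, 138 had matched values. The other 11 haploid and 33 diploid S-phase cells and 6 haploid G1 cells were not analysed here. Another 24 columns, from 8 diploid cells, could be tied to no labelled sample and were left aside, so the ranking rests on matched cells only. Of 49264 autosomal bins, 45112 had a score in 50% or more of the haploid and of the diploid cells, and every early bin had a state in all cells. Scheduled time was the percentile rank without the cell itself on 10 h. The sigmoid K/(1+exp(-B(x-M))) was fitted from 100, 0.7 and 0 to intervals of 0.1 h with at least 100 values. Overdue shares needed at least 100 overdue bins in a cell. The line difference was averaged over progress intervals, weighted by the smaller number of cells. Positions are in mm10, with genes from GENCODE M21 and sequence from GRCm38.p6, the same assembly. RefSeq promoters were placed by coordinates, and 17987 start sites of protein-coding genes fell in ranked bins.

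The early bins and the gene lists were chosen with earlier results of these data known. Named regions were the 5 longest runs, the 3 runs of at least 4 called bins with the largest mean line difference in each direction, and the 5 and 3 runs of at least 4 bins with the most straggling and the most asynchronous cells. Up to 4 genes were named in each, together with up to 12 pluripotency and 12 licensing genes in early bins, in list order. Gdf3, Lifr, Orc2 within its run, the licensing genes in middle bins and the glycolysis genes were named after their values were seen. A region that the rule names is not reported here. The 6 printed promoters were also chosen after that. Python 3.11.15 with numpy 2.4.6, pandas 2.3.3, scipy 1.17.1 and matplotlib 3.10.9 was used. Curve fits, overdue shares and line differences were tested on simulated data.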

Additional observations from a re-analysis of the deposited data

How the results depend on the processing

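The 11 results were recomputed under 56 alternatives. Of these, 46 stayed within 1 SD over cells or, for counts and values without a spread, within 1.5 times. The SD over cells is a wide limit, since a haploid share of early bins replicated of 82.6% in place of 92.7% stayed within it. Shares, counts and widths cannot change sign, and the asynchrony of early bins minus that of other bins stayed negative. Counting a smoothed score above 0 as replicated raised the mean share of overdue early bins unreplicated from 5.65% to 15.01%, and the cause was not tested. The number of early bins higher in haploid cells by at least 0.5, which was 29, became 50 in cells with 40 to 60% of bins replicated, 10 after each chromosome was centered, 1 with binarized states and a limit of 30 percentage points, 525 at a limit of 0.3 and 14 without matching for progress. The number higher in diploid cells, which was 51, became 109 in cells with 40 to 60% replicated, 20 with binarized states and 479 at a limit of 0.3. Counting all annotated genes gave 31.3 starts per Mb in place of 15.2, since more genes are counted, against 20.6 over all ranked bins. T_width of early bins lay between 2.30 and 3.58 h under its alternatives. Ranking by binarized states kept 73.7% of the early bins, and ranking after centering each chromosome kept 80.1%. Leaving out 1 cell of each of the 3 alike diploid pairs, or the 2 diploid cells below 25% progress, was chosen after seeing the data, and the second gave a T_width of 2.90 h. No paired analysis was possible because plate wells and replicate numbers only name cells and link no haploid cell with a diploid cell. Each line is 1 sample, so the values cover the spread between its cells, and line, strain, ploidy, plate and sorting gates cannot be told apart. Depth per cell is unknown.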
